A study of Homo sapiens with 6 samples.

Results

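The HLA class II genes are described here in SK-MEL-28, an established human melanoma cell line. The set holds 10 of the 60504 genes of the count table and was given by name: the DR, DP and DQ chain genes HLA-DRA, HLA-DRB1, HLA-DPA1, HLA-DPB1, HLA-DQA1 and HLA-DQB1, the peptide editor genes HLA-DMA and HLA-DMB, the invariant chain gene CD74, and CIITA. It was proposed from the contrast between the labels, because HLA-DQB1 is among the strongest differences in these counts, so levels and fold changes of these genes are descriptions and carry no test. RNA was sequenced from 3 libraries labelled EV, cells given an EV plasmid as the control, and 3 libraries labelled HDAC8, cells expressing the histone deacetylase HDAC8. The labels number the replicates 1 to 3 and do not say whether these were separate cultures, so p-values of other genes measure only the spread between these libraries. All libraries come from 1 cell line, and the labels do not say whether the plasmid-bearing cells were clones.

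Class II molecules are pairs of an alpha and a beta chain that carry peptides from the endosomal pathway to CD4 T cells. They are made constitutively by B cells, dendritic cells and other antigen-presenting cells, while other cells, melanoma cells among them, may make them after interferon-gamma. CIITA is the coactivator on which class II transcription depends: it binds no DNA itself and is recruited to the RFX, CREB and NF-Y factors that sit on the X and Y boxes upstream of class II genes, CD74 and the DM genes. CD74 fills the peptide groove until cathepsins degrade it, and HLA-DM then helps peptide in.

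Because the members share this regulator but differed in their levels between libraries, their reference promoters are shown first. RefSeq promoter windows on GRCh38.p14 were found for 8 of the 10 members, in 9 windows, and those of HLA-DRA and CIITA were not among them. Capitals mark matches, on either strand, to ACNGATG, a core of the X box, and to ATTGG, a core of the Y box that reads CCAAT on the opposite strand. The stretches run from 160 to 41 bases before the start annotated by RefSeq. The GENCODE 44 gene bounds, used for positions elsewhere in the text, reach beyond that start for some members. The HLA-DQB1 and HLA-DMA stretches lie inside those bounds and the CD74 stretch partly does. HLA-DQB1 and HLA-DMA are shown as the members whose levels separated the labels, HLA-DRB1 as the member with the same spacing as HLA-DQB1 that was hardly detected, and CD74 as the most abundant member in the library that stood apart.
HLA-DQB1 promoter, chr6:32666698-32666817, minus strand: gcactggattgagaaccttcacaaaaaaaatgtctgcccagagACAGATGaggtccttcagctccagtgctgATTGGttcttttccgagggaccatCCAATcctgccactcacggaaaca
HLA-DRB1 promoter, chr6:32589889-32590008, minus strand: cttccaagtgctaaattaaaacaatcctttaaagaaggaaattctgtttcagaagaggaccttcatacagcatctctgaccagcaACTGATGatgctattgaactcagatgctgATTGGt
HLA-DMA promoter, chr6:32953138-32953257, minus strand: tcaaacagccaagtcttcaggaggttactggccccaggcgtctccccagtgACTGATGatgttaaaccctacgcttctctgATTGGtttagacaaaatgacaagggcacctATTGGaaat
CD74 promoter, chr5:150412951-150413070, minus strand: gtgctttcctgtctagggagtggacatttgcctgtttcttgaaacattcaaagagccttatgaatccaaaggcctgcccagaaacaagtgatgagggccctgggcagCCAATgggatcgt
An ACNGATG match followed by an ATTGG match, with their first bases 10 to 35 apart, was present in 3 of the 9 member windows: HLA-DRB1 and HLA-DQB1, each with 22 bases between the matches, and HLA-DMA with 23. Of 35116 windows of 250 bases before annotated starts, 0.0769% held such a pair, 6.35% held ACNGATG and 32.0% held ATTGG. These matches describe the reference sequence, and the alleles of SK-MEL-28 were not analysed. Of the 3 members with paired motifs, HLA-DQB1 was lower under the HDAC8 label, HLA-DMA was higher, and HLA-DRB1 was at or near the detection floor. Whether the motifs bear on the levels was not tested.

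The libraries held 20850018 to 29822917 estimated counts, at which 3 counts, taken as the smallest detectable level, correspond to 0.102 to 0.148 CPM (counts scaled to a common library size by TMM). Melanocyte markers were detected for 7 of 7 genes in every library and summed to 6376 to 7937 CPM, led by PMEL, while DCT fell from 233.3 ± 10.7 to 68.3 ± 2.07 CPM (edgeR adjusted p = 1.13e-09) and TYRP1 rose from 0.380 ± 0.156 to 1.30 ± 0.420 CPM (edgeR adjusted p = 0.0204), a call lost without EV replicate 1 (edgeR adjusted p = 0.102), EV replicate 3 (0.0842), HDAC8 replicate 1 (0.0817) or HDAC8 replicate 2 (0.0861). The introduced gene itself did not separate the labels: HDAC8 (chromosome X, 72329516 to 72573101) was at 14.5 ± 2.48 CPM (SD, n = 3) under the EV label and 14.3 ± 0.881 CPM under the HDAC8 label, with a log2 fold change of -0.02 (edgeR quasi-likelihood test, SE 0.13, adjusted p = 0.924), so groups are named by label throughout. HDAC8 replicate 1 and HDAC8 replicate 3 had 163 and 158 genes at least 2-fold above both other libraries of their label, and EV replicate 2 had 154, against 46 to 56 in the other libraries. This measure did not single out HDAC8 replicate 1. Values that rest on HDAC8 replicate 1 are given with and without it because several members were themselves far higher there.

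HLA-DQB1, the beta chain of DQ, had the clearest separation of the members. It lies on chromosome 6 at 32659467 to 32668383, minus strand (GRCh38, GENCODE 44). Its estimated counts were 73, 105 and 77 in EV replicates 1, 2 and 3, and 5, 4 and 3 in HDAC8 replicates 1, 2 and 3. The groups did not overlap, and every HDAC8-labelled library was close to the detection floor. In CPM these were 3.39, 4.74 and 3.13 against 0.170, 0.197 and 0.129, or means of 3.76 ± 0.865 and 0.166 ± 0.0342 (SD, n = 3). The fitted log2 fold change of HLA-DQB1, HDAC8 over EV, was -4.47 (SE 0.39). Summed over libraries, 255 counts stood against 12, a 22.7-fold higher level under the EV label. The exact 95% interval of 12.8 to 44.5 covers counting error only. The fitted log2 fold change lay between -4.60 and -4.27 when each library was left out in turn. Because this difference led to the choice of the set, the fold may be overstated. The interval and this range describe the same counts and are not support for the difference.

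The alpha chain that pairs with it was not measurable. HLA-DQA1 had 1, 0 and 4 counts under the EV label and 1, 0 and 0 under the HDAC8 label, so 5 of 6 libraries were below the floor. A DQ molecule needs both chains, and under the EV label these libraries held HLA-DQB1 counts with next to no counts assigned to HLA-DQA1.

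HLA-DMA, the alpha chain of the DM peptide editor, differed in the other direction. Its counts were 14, 28 and 12 under the EV label and 69.7, 44 and 31 under the HDAC8 label, or 0.650, 1.26 and 0.488 CPM against 2.37, 2.17 and 1.34. All 3 HDAC8-labelled libraries were above all 3 EV-labelled ones. The means were 0.801 ± 0.410 and 1.96 ± 0.548 CPM, and the log2 fold change of HLA-DMA was 1.29 (SE 0.43), or 1.12 without HDAC8 replicate 1. HLA-DMB, the beta chain of the same dimer, had 0.650, 0.813 and 0.285 CPM against 0.587, 0.105 and 0.442. These groups overlapped, and the log2 fold change of HLA-DMB was -0.60 (SE 0.64), or -1.09 without HDAC8 replicate 1 and from -1.09 to -0.20 with each library left out in turn.

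**Figure D1:**
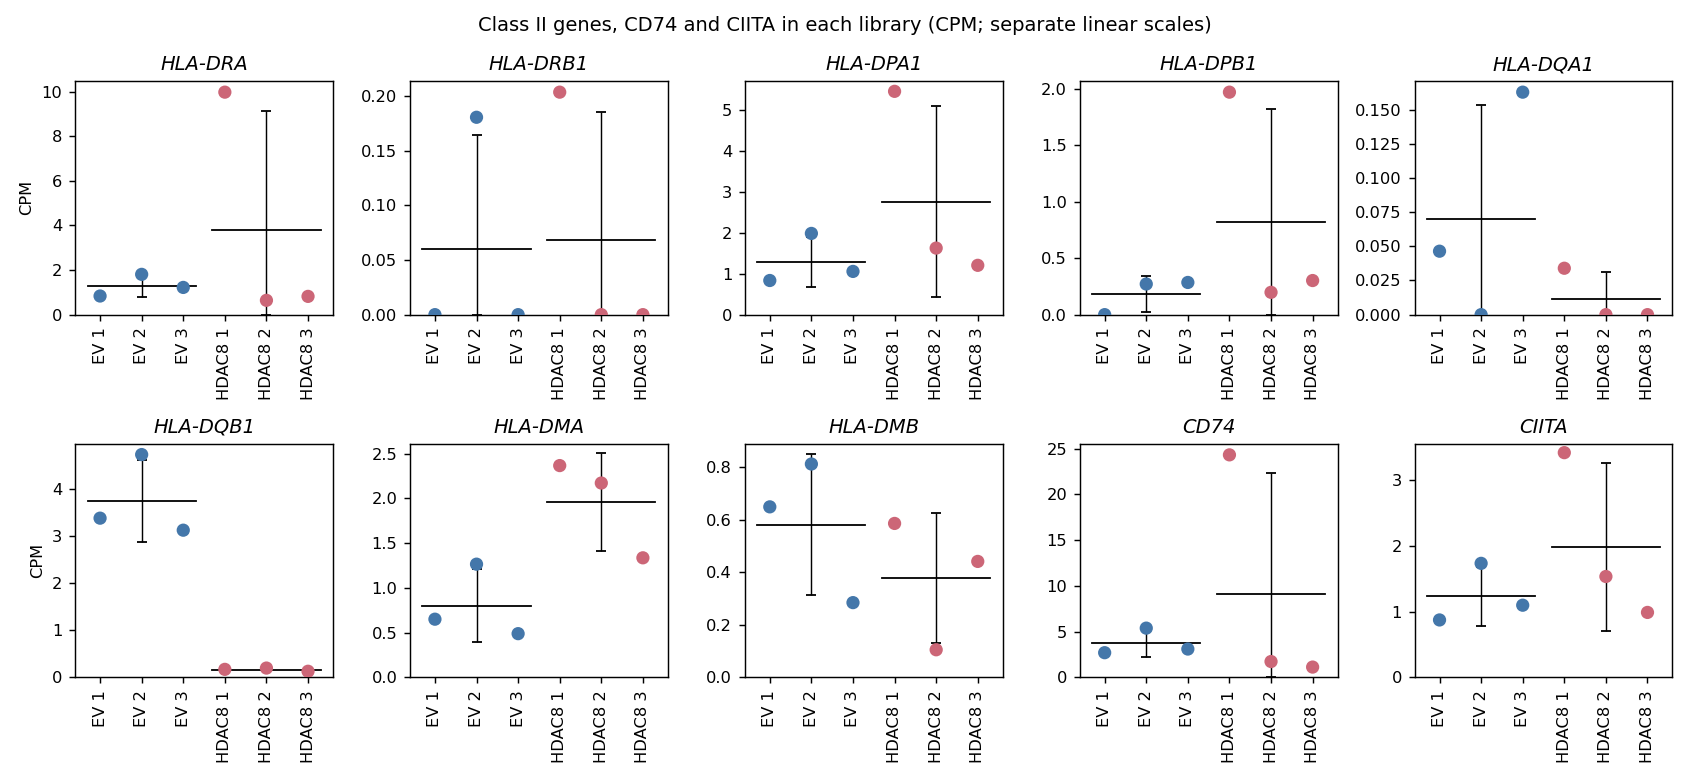
Level of each member in each library, in CPM on separate linear scales that start at 0, with EV-labelled libraries in blue and HDAC8-labelled ones in red. Lines are group means and bars are SD (n = 3), cut at 0: HLA-DQB1 is above 3 CPM in the EV-labelled libraries and below 0.2 CPM in the others, while the high means of CD74, HLA-DRA, HLA-DPA1 and HLA-DPB1 under the HDAC8 label come from replicate 1.

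CD74, HLA-DRA, HLA-DPA1, HLA-DPB1 and CIITA shared another pattern, in which 1 library stood apart. CD74 (chromosome 5, 150401637 to 150412969, minus strand) had 58, 119 and 76 counts under the EV label and 716, 35 and 26 under the HDAC8 label. In CPM it was at 2.69, 5.38 and 3.09 against 24.3, 1.73 and 1.12. HDAC8 replicate 1 was 4.52-fold above the next library, and the other HDAC8-labelled libraries were below every EV-labelled one. The means were 3.72 ± 1.45 and 9.05 ± 13.2 CPM, and without HDAC8 replicate 1 the HDAC8-labelled mean was 1.42 CPM. The sign of its difference therefore depended on that library: the log2 fold change of CD74 was 1.32 (SE 0.84) with all libraries and -1.40 without HDAC8 replicate 1.

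HLA-DRA, the DR alpha chain (chromosome 6, 32439878 to 32445046, plus strand), had 18, 40 and 30 counts against 294, 13 and 19, or 0.836, 1.81 and 1.22 CPM against 9.98, 0.642 and 0.819. It had a split like that of CD74, with HDAC8 replicate 1 at 5.52 times the next library and the other HDAC8-labelled libraries below all EV-labelled ones. For HDAC8 replicate 3 this was by little, 0.819 CPM (19 counts) against 0.836 CPM (18 counts) in EV replicate 1. The log2 fold change of HLA-DRA was 1.59 (SE 0.83), and -0.82 without HDAC8 replicate 1. Its partner HLA-DRB1 had 0, 4 and 0 counts against 6, 0 and 0. Counts of 0 allow up to the floor of each library, so HLA-DRB1 was not detectable at this depth in 4 of 6 libraries. The DR beta chain genes HLA-DRB3 and HLA-DRB4 were not found in the count table and could not be analysed.

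HLA-DPA1, the DP alpha chain, had 0.836, 1.99 and 1.06 CPM against 5.47, 1.63 and 1.21. The other HDAC8-labelled libraries lay among the EV-labelled ones here, unlike for CD74, and the log2 fold change of HLA-DPA1 went from 1.11 (SE 0.54) to 0.12 without HDAC8 replicate 1. HLA-DPB1, its beta chain, had 0, 6 and 7 counts against 58, 4 and 7. CIITA (chromosome 16, 10866222 to 10943021, plus strand) was at 0.872, 1.73 and 1.10 CPM against 3.41, 1.53 and 0.986. HDAC8 replicate 1 was again the highest for CIITA, 1.97-fold above the next library, and the log2 fold change was 0.70 (SE 0.47), or 0.02 without it. The regulator thus spanned a smaller range than CD74 and HLA-DRA, and its groups overlapped.

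**Figure D2:**
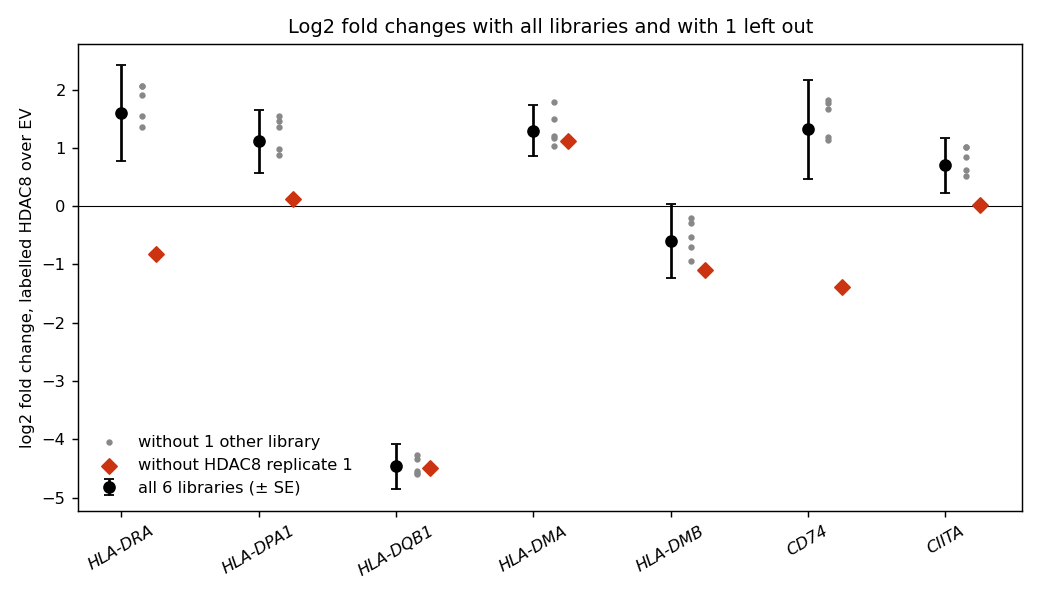
Log2 fold change, HDAC8 label over EV label, of the 7 members that passed the filter on low counts. Black points with bars are values with all 6 libraries ± SE, grey points leave out 1 other library and red diamonds leave out HDAC8 replicate 1: CD74 and HLA-DRA change sign without it, HLA-DPA1 and CIITA move to near 0, and HLA-DQB1 and HLA-DMA keep their side.

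Of the 10 members, 7 passed the filter on low counts, and HLA-DRB1, HLA-DPB1 and HLA-DQA1 did not. Called means an adjusted p below 0.05 with a log2 fold change of 0.58 or more in either direction. By edgeR 1 member was called lower under the HDAC8 label, HLA-DQB1, and 0 higher, beside 3.45% of all tested genes called lower, 4.07% called higher and 7.52% called in either direction. Of the members, 2 of the 7 had an unadjusted p below 0.05, and DESeq2 called HLA-DQB1 lower and HLA-DMA higher. Without HDAC8 replicate 1, edgeR called HLA-DQB1 and CD74 lower, and no member higher, beside 3.38% of all genes called lower, 3.51% higher and 6.89% in either direction. The groups did not overlap for 2 members, HLA-DQB1 and HLA-DMA, 1 in each direction, beside 19.3% of all tested genes with the HDAC8 label below, 18.7% with it above and 38.0% in all. Nothing is read from these counts, since the contrast chose the set. The median log2 fold change of the 7 members was 1.11, against 0.01 over all 16195 genes tested, and without HDAC8 replicate 1 it was -0.82 against 0.00.

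Per kilobase of the annotated canonical transcript, the levels under the EV label were led by HLA-DQB1 at 2.34 ± 0.539 CPM per kilobase and CD74 at 2.25 ± 0.876, which did not differ beyond their spread. HLA-DRA followed at 1.04 ± 0.396, then HLA-DPA1 at 0.759 ± 0.359, HLA-DMA at 0.733 ± 0.375 and HLA-DMB at 0.432 ± 0.201, with neighbours in this order within their SD of each other except CD74 and HLA-DRA. CIITA, HLA-DRB1, HLA-DPB1 and HLA-DQA1 were below 0.1 CPM per kilobase. For CIITA this reflects an annotated length of 16061 bases, since its mean under the EV label was 1.23 CPM, near the 1.29 CPM of HLA-DRA. Under the HDAC8 label CD74 led at 5.48 ± 8.0, followed by HLA-DRA at 3.09 ± 4.33, HLA-DMA at 1.79 ± 0.501 and HLA-DPA1 at 1.62 ± 1.38, and none of these neighbours differed beyond their spread. Without HDAC8 replicate 1 this order was different: HLA-DMA led at 1.60 CPM per kilobase, before CD74 at 0.861, HLA-DPA1 at 0.832 and HLA-DRA at 0.591. HLA-DQB1 was at 0.103 ± 0.0213 CPM per kilobase with all libraries, within the spread of CIITA and HLA-DPB1, and at 0.102 without that library.

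Relative to CD74 within the same library, HLA-DRA varied less than the other members named here. It had 0.310, 0.336 and 0.395 counts per CD74 count under the EV label and 0.411, 0.371 and 0.731 under the HDAC8 label. HDAC8 replicate 3 had the highest ratio, and the library with the most CD74 lay within the range of the others. CIITA had 0.324, 0.322 and 0.354 counts per CD74 count in the EV-labelled libraries and 0.140, 0.887 and 0.880 in the HDAC8-labelled ones. HLA-DMA had 0.241, 0.235 and 0.158 against 0.0974, 1.26 and 1.19, and HLA-DQB1 1.26, 0.882 and 1.01 against 0.00698, 0.114 and 0.115. The HDAC8-labelled libraries thus differed among themselves in these ratios. Per CD74 count, CIITA, HLA-DMA and HLA-DQB1 were low in replicate 1, and CIITA and HLA-DMA were high in replicates 2 and 3. The CD74 level in the denominator was 24.3, 1.73 and 1.12 CPM in HDAC8 replicates 1, 2 and 3. In CPM, CIITA and HLA-DMA were highest in HDAC8 replicate 1.

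The antigen-presenting cell markers were looked at beside these levels. Of 14 such markers, 7 were highest in HDAC8 replicate 1, among them the B-cell genes MS4A1, CD79A and CD79B, which also stand in the B-lymphoid list. PTPRC, the pan-leukocyte gene CD45, had 1 count in EV replicate 1 and 0 elsewhere, CD14 had 0 to 2 counts, and CD86 had 4 counts in HDAC8 replicate 1 and 0 elsewhere. The summed level of the list was 97.4 to 101 CPM under the EV label and 49.3 to 63.2 CPM under the HDAC8 label. ITGAX was the largest part of it under the EV label and CD68 under the HDAC8 label. ITGAX, the integrin CD11c, fell from 68.7 ± 3.01 to 20.8 ± 1.82 CPM (edgeR, log2 fold change -1.73, SE 0.08, adjusted p = 2.23e-08). CD68 and LYZ, which macrophages express, did not pass the test.

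Lists of B-lymphoid, T-lymphoid and myeloid markers were added after these values had been seen. Of 20 B-lymphoid markers, 18 were highest in HDAC8 replicate 1, beside 17.8% of all tested genes, and 16 were there at least 2-fold above every other library, beside 0.537% of all tested genes. DNTT, the terminal transferase of lymphoid precursors, had 73, 150 and 66 counts under the EV label and 1273, 32 and 28 under the HDAC8 label. PAX5, the B-lineage transcription factor, had 27, 44 and 49 against 495, 21 and 3. IGHM, the mu heavy chain, had 45, 93 and 121 against 643, 17 and 33. VPREB1, a surrogate light chain of B-cell precursors, had 3, 11 and 14 against 147, 0 and 4. PAX5, IGHM and VPREB1 were chosen after their values were seen. The more abundant CD22, a B-cell surface receptor, had 151, 207 and 183 against 390, 94 and 159, and RAG1, the recombinase, had 86, 137 and 105 against 633.2, 90 and 137, a smaller excess in HDAC8 replicate 1. These markers were present in the EV-labelled libraries too, and, like CD74 and HLA-DRA, they were mostly lowest in HDAC8 replicates 2 and 3, where 12 of the 20 were below every EV-labelled library, beside 23.4% of all tested genes.

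The summed level of the B-lymphoid list was 64.6, 73.0 and 71.8 CPM under the EV label and 211.9, 45.3 and 44.7 CPM under the HDAC8 label. Without EBF1, which had 589 to 990 counts in every library, the sums were 24.4, 38.0 and 31.5 CPM against 178.8, 15.7 and 19.3. CD74 ranked the 6 libraries in the same order as the whole list, and HLA-DRA did so but for the last places, held by HDAC8 replicates 2 and 3. Without EBF1 these last places changed order, so that HLA-DRA matched the list and CD74 differed from it there. HLA-DQB1 did not follow this order: it had 5 counts in the library with the most B-lymphoid RNA. HLA-DMA also departed from it, since HDAC8 replicate 2 held 2.17 CPM of HLA-DMA with next to the lowest B-lymphoid sum. IKZF3 was at or below 1 count in all libraries. Of the 16 B-lymphoid markers tested, edgeR called 0 in either direction with all libraries, 3 had an unadjusted p below 0.05 and DESeq2 called 1 higher. Without HDAC8 replicate 1 it called 3 lower under the HDAC8 label, IGHM, DNTT and TCL1A, and the median log2 fold change of the list went from 1.38 to -1.55.

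T-lymphoid markers summed to 1.58 to 2.56 CPM under the EV label and 1.51 to 5.26 CPM under the HDAC8 label. The highest sum was that of HDAC8 replicate 1, where 6 of the 11 were highest. Among these, LCK had 30 counts against 0 to 4 elsewhere, ZAP70 had 56 against 3 to 40, CD247 had 12 against 2 to 4, and CD3D had 3 against 0. The markers CD2, CD3E and CD3G were at 0 in all 6 libraries. Myeloid markers summed to 0.570 to 0.858 CPM and 0.992 to 1.56 CPM, and 2 of the 11 were highest in HDAC8 replicate 1. CSF1R, the macrophage growth factor receptor, had 10, 6 and 4 counts against 35, 10 and 14, with every HDAC8-labelled library above every EV-labelled one in CPM and a log2 fold change of 1.37 (SE 0.57) that did not pass the test. MPO, ELANE and S100A8 were at 0. The part of any of these cell types in the class II values was not tested, and in bulk RNA more cells of a type and more RNA per cell cannot be told apart.

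**Figure D3:**
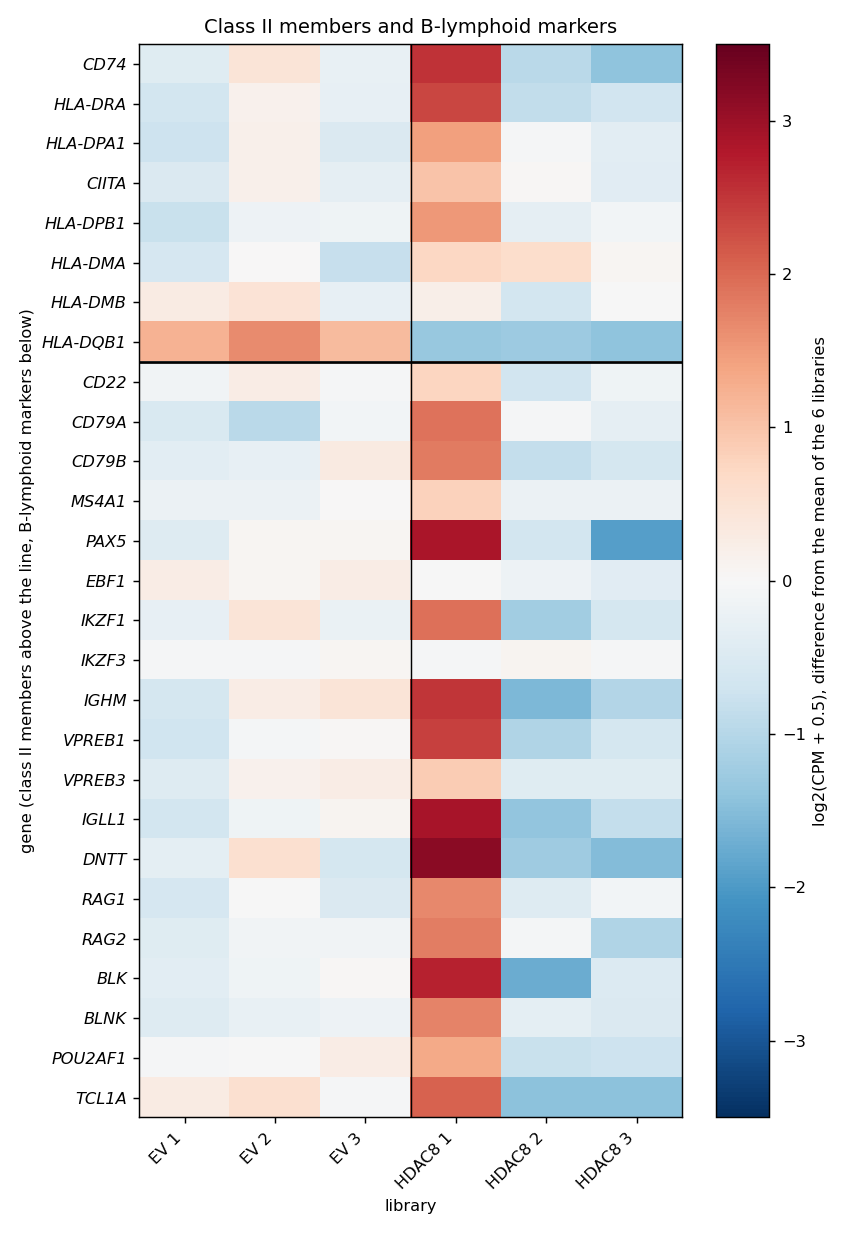
Differences of log2(CPM + 0.5) from the mean of the 6 libraries, with blue below and red above that mean, for 8 members above the horizontal line and 19 of the 20 B-lymphoid markers below it. HDAC8 replicate 1 is the highest library for CD74, HLA-DRA, HLA-DPA1, CIITA and HLA-DPB1 and for 17 of the 19 markers shown. It is also the highest for HLA-DMA, narrowly (2.37 CPM against 2.17 CPM in HDAC8 replicate 2). HLA-DQB1 is high in the EV-labelled libraries and low in HDAC8 replicate 1.

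The genes most like HLA-DQB1 in pattern over the 6 libraries were AL035665.1, BOC, HIST1H1B, KCNN2 and BDNF, at root mean square differences of 0.153 to 0.252 on the centred log2(CPM + 0.5) scale among 14149 genes. No member came near it, the other tested members with at least 1 CPM lying at 1.60 to 1.90. Those most like HLA-DRA were RCSD1, JUP, VPREB1, FLI1 and SPN, at 0.162 to 0.232. CD74 was the nearest member to HLA-DRA at 0.351, before HLA-DPA1 at 0.518 and CIITA at 0.672. These are descriptions over libraries that share the same contrast, chosen from many genes.

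Shared reads were looked at because class II genes have near-identical copies. The deposited counts of HLA-DQB1, CD74, HLA-DRA, HLA-DRB1, HLA-DPA1, HLA-DPB1 and HLA-DQA1 were whole numbers in all 6 libraries, while those of CIITA were not whole in any, those of HLA-DMB not in 3 and those of HLA-DMA not in 1. In HDAC8 replicate 1, where HLA-DMA was highest, both were not whole, at 69.72 for HLA-DMA and 17.28 for HLA-DMB. The division of reads between HLA-DMA and HLA-DMB is therefore uncertain in that library, and which genes shared them was not tested. HLA-DQB2, the closest copy of HLA-DQB1, was at 0 in all libraries, so that the summed counts gave the same log2 ratio as HLA-DQB1 alone, -4.51. HLA-DQA2 had 10 counts in HDAC8 replicate 1, where HLA-DQA1 had 1, and 0 elsewhere, and HLA-DRB5 had 3 counts in that library and 0 elsewhere. HLA-DPA1 and HLA-DPB1 overlap on opposite strands, at 33064569 to 33080775 and 33075990 to 33089696 of chromosome 6. The labels name a directional library kit but not the strand setting of the counting, so reads in the overlap are uncertain.

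The other genes of the pathway mostly did not pass the thresholds. Of 13 promoter-binding factors and coactivators, 13 were tested and 0 were called by edgeR or DESeq2. Their median log2 fold change was 0.04, and 4 had an unadjusted p below 0.05. Of all 16195 tested genes, 1790 were higher and 1891 lower at an adjusted p below 0.05 by edgeR without a fold threshold. Low p-values were thus common over all genes, and their number is not read as a trait of this or any other list. EP300 and CREBBP, acetyltransferases that act with CIITA, were at 357.8 ± 7.99 and 355.2 ± 16.5 CPM and at 180.9 ± 6.06 and 191.8 ± 9.63 CPM, with log2 fold changes of -0.01 and 0.08. SMARCA4, the chromatin remodeller, had 0.13, and CARM1, the arginine methyltransferase, had 0.04. Chosen after the values were seen, 3 genes had an adjusted p below 0.05 with smaller folds: KAT2B, the acetyltransferase PCAF, fell by 0.49 on the log2 scale (adjusted p = 7.5e-05), NFYC fell by 0.20 (adjusted p = 0.0368), and RFX5, the subunit of the X-box complex that is lost in a form of class II deficiency, rose by 0.23 (adjusted p = 0.0434), all by edgeR. With each library left out in turn, KAT2B stayed below 0.05, whereas the edgeR adjusted p of NFYC was 0.155, 0.0670, 0.0777 and 0.0996 without EV replicates 1, 2 and 3 and HDAC8 replicate 1, and that of RFX5 was 0.104, 0.198, 0.0946 and 0.106 without EV replicates 2 and 3 and HDAC8 replicates 1 and 3.

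In the interferon-gamma pathway that induces CIITA, 9 of 10 genes were tested, 0 were called higher and 1 lower. JAK2, the kinase bound to the interferon-gamma receptor, fell from 41.7 ± 1.81 to 18.5 ± 1.85 CPM (log2 fold change -1.17, SE 0.09, edgeR adjusted p = 1.57e-06), lower in 3 of 3 libraries. The ligand gene IFNG was at 0 counts in all 6 libraries. The log2 fold changes of the receptor kinase gene JAK1 and the receptor gene IFNGR2 were 0.04 and 0.22, and of these IFNGR2 had an adjusted p of 0.0168 by edgeR with a fold below the threshold (0.0754 and 0.0739 when EV replicates 2 and 3 were left out). The list's median was 0.04.

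Of 13 processing and loading genes, 10 were tested and 0 were called by edgeR or DESeq2, with 6 at an unadjusted p below 0.05 and a median of -0.12. CTSB, a lysosomal protease, fell by 0.20 on the log2 scale (edgeR adjusted p = 0.0056) and CTSD rose by 0.31 (edgeR adjusted p = 0.00178), both short of the fold threshold. CTSL had 0.14 and SPPL2A, the protease that clears the CD74 stub, had -0.16, and neither passed the test. CTSS, the cathepsin that degrades CD74 in antigen-presenting cells, had too few counts to test, with 5, 2 and 3 against 9, 12 and 16. In CPM it was above every EV-labelled library in every HDAC8-labelled one, as were HLA-DMA and 18.7% of all tested genes. CTSS, and HLA-DOA and HLA-DOB below, were named with their values known. HLA-DOA, the DM inhibitor chain, had 2, 0 and 3 counts against 41, 0 and 1. It was highest in HDAC8 replicate 1, as CD74 was, but at or below the floor of 3 counts elsewhere. HLA-DOB of the same list had 3.18, 9.55 and 10 counts against 7.13, 7 and 16.

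Of 5 CD74 ligands and partners, 4 were tested and 0 were called by edgeR or DESeq2, with 1 at an unadjusted p below 0.05 and a median of 0.05. MIF and DDT, the ligands of surface CD74, had log2 fold changes of 0.13 and -0.04. CD44, its signalling partner, fell by 0.36 (edgeR adjusted p = 0.000285), below the fold threshold. CXCR4 had 0, 10 and 14 counts against 102, 1 and 0, again highest in HDAC8 replicate 1.

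Of 19 genes that flank the class II genes on chromosome 6, 17 were tested, 0 were called higher and 1 lower, with a median of -0.11, and log2 fold changes from -0.85 to 0.35. The gene called was COL11A2, a fibrillar collagen gene, at 8.79 ± 0.701 and 4.89 ± 1.75 CPM (log2 fold change -0.85, SE 0.22, edgeR adjusted p = 0.0165). Its adjusted p was 0.0720 without EV replicate 3 and 0.0636 without HDAC8 replicate 2. RPS18, BRD2, TAPBP and SLC39A7, the most abundant of the flanking genes, had log2 fold changes of 0.22, -0.16, 0.01 and -0.06.

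**Figure D4:**
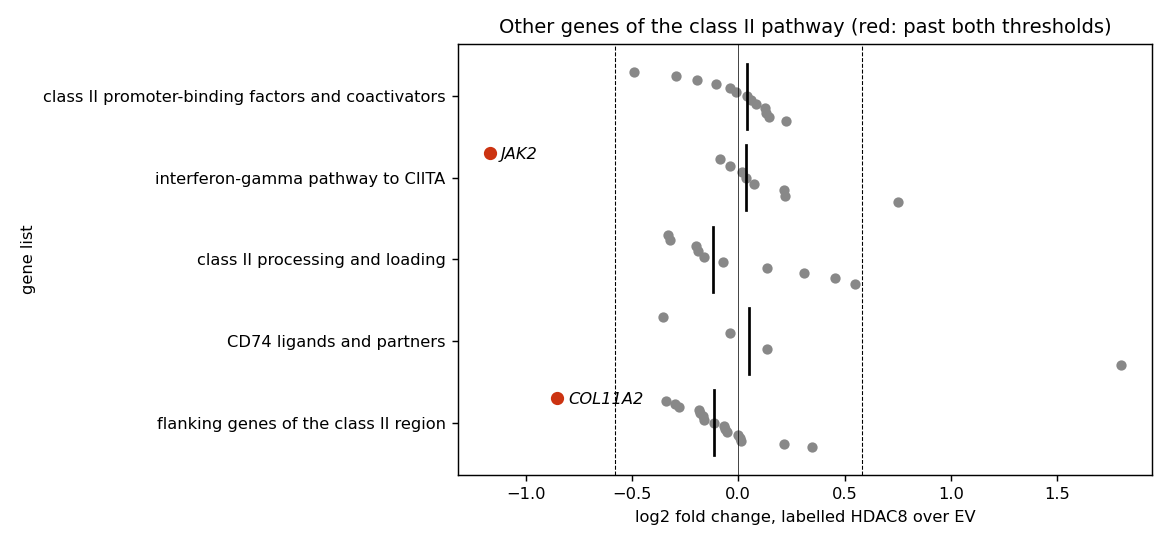
Log2 fold change, HDAC8 label over EV label, of the tested genes of 5 pathway lists, with 1 point per gene, a vertical bar at each list's median and dashed lines at the fold threshold of 0.58 in each direction. JAK2 and COL11A2, in red, pass both thresholds and all other points do not.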

How the data were processed

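RNA-seq of SK-MEL-28 was analysed in 6 libraries, 3 labelled EV and 3 labelled HDAC8, matched to the count table by column name. The table the authors deposited holds estimated counts for each Ensembl gene, not normalized. The study's methods name Trimmomatic for trimming, STAR for alignment to the transcriptome and RSEM for quantification, and the submitters' processing notes name GRCh38. The annotation release is not given in the sources used here. Between 5351 and 5685 of 60504 values per library were not whole, as RSEM can divide reads between genes, and counts were rounded for the tests. A deposited table of the authors' own comparison (log2 fold changes, p-values and values of a Ctrl and a Test group) was not used.

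In R 4.3.3, 16195 genes passed filterByExpr and were tested with edgeR 4.0.16 (TMM, glmQLFit, glmQLFTest, HDAC8 over EV, no block), with Benjamini-Hochberg adjustment over all of them, called at an adjusted p below 0.05 with a fold of 0.58 or more on the log2 scale, in either direction. An SE is the size of the log2 fold change over the root of its F statistic. The scripts were tested on simulated data. Library totals were 20850018 to 29822917, and no molecular identifiers are named, so floors and intervals cover counting error only. Replicates of a label differed by more than sampling noise (chi-square per degree of freedom 4.4 to 15.4). Promoters are from RefSeq on GRCh38.p14 and positions from GENCODE 44, matched by Ensembl identifier.

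The members, lists and tests were chosen with earlier results of these data known. Text names all members, in each other list the genes past both thresholds and up to 4 by mean CPM, and the 5 genes nearest in pattern, at a mean of at least 1 CPM, to HLA-DQB1 and HLA-DRA. B-lymphoid, T-lymphoid and myeloid lists were chosen after seeing the data, as were some of the genes named in these and in other lists. The single values of some list genes are not reported here, though they enter the counts and sums of their lists. Alternatives were DESeq2 1.42.0, upper-quartile scaling, no filter, at least 10 counts in every library, other fold thresholds, a replicate block and leaving out each library.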

Additional observations from a re-analysis of the deposited data

How the results depend on the processing

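Without a fold threshold, 1790 genes were higher and 1891 lower under the HDAC8 label, and with a threshold of 1 on the log2 scale these were 391 and 309. Leaving out each library gave 560 to 661 higher and 456 to 606 lower. Members called higher numbered 1 with DESeq2 (HLA-DMA; 4.12% of all genes), 5 of 10 with no filter on low counts (HLA-DRA, HLA-DPA1, HLA-DPB1, HLA-DMA and CD74; 2.81%), 1 of 5 with at least 10 counts in every library (HLA-DMA; 3.84%), and 0 to 1 with a library left out. Without the filter the SE was 0.20 for CD74 and 0.32 for HLA-DRA, against 0.84 and 0.83 in the main fit. CD74, HLA-DRA and HLA-DPB1 were far higher in HDAC8 replicate 1 than in any other library, so these calls rest on that library. Members called lower numbered 0 with at least 10 counts in every library, which leaves out HLA-DQB1, and 1 to 2 with a library left out. Pathway genes called higher numbered 2 with no filter and 4 with no fold threshold, and those called lower 10 with no fold threshold, 1 with the threshold of 1, and 1 to 2 with a library left out. The log2 fold change of HDAC8 was 0.080 when EV replicate 1 was left out, 0.010 for EV replicate 2 and 0.0081 for HDAC8 replicate 3, all reversed, within a range of -0.158 to 0.080. HLA-DRA (-0.82 to 2.07) and CD74 (-1.40 to 1.83) reversed without HDAC8 replicate 1. Summed with their copies, HLA-DPA1 lay between 0.12 and 1.67 and HLA-DPB1 between 0.41 and 2.71, lowest without HDAC8 replicate 1. Apart from the changes that follow from fewer genes or libraries, the cause was not tested. Same-numbered libraries did not deviate together over the tested genes (correlations of -0.12 to -0.05). A pairing by number was thus not seen, but this measure cannot exclude a weak one. With the replicate block 601 genes were higher and 497 lower, HLA-DQB1 was the only member called, and CD74 and HLA-DRA were at 0.15 and 0.56. HLA-DRB1, HLA-DQA1 and HLA-DPB1 lay at or near the floor in most libraries. Whether depth or the alleles of SK-MEL-28 underlie their low counts was not tested.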
